A study of Drosophila melanogaster with 63 samples.

Results

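CP190 is a zinc-finger protein of Drosophila chromatin insulators that is brought to chromatin largely by DNA-binding partners. Su(Hw) is such a partner: it binds its own DNA sequence and, with CP190 and Mod(mdg4)67.2, forms the complex of the gypsy insulator. NURF301, encoded by E(bx), is the largest subunit of the NURF nucleosome remodeler, which slides nucleosomes with the help of the ISWI ATPase. CP190 is also found at many promoters without Su(Hw).

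The CP190 binding described here was measured in 6 chromatin immunoprecipitation (ChIP-seq) libraries of Kc167 cells, a line from Drosophila embryos, out of 63 samples in the series, of which 46 had a peak list. In 3 libraries Nurf301 had been knocked down with 5 ug of double-stranded RNA. In the other 3 libraries the same amount targeted su(Hw). A CP190 knockdown with the same amount, which has 2 CP190 lists, is used beside them further below. Per the labels, cells were kept for 4 days at 25°C after the treatment, and mock-treated cells were titled as a mock and a mock2 series, with 3 CP190 libraries each. The titles number the mock series like the NURF301 knockdown and the mock2 series like the Su(Hw) knockdown, so knockdown and titled series cannot be told apart in a direct contrast. Mock and mock2 values are therefore given beside the comparisons of shares and recovery.

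Peaks of the 6 lists were merged wherever they shared at least 1 bp, which gave 6283 CP190 sites on the main chromosomes. A total of 710 sites had a peak in all 3 NURF301 knockdown lists and in no Su(Hw) knockdown list, which is 11.3% of the merged sites. The reverse pattern was found at 345 sites, or 5.49%. A peak in all 6 lists was found at 2480 sites, or 39.5%. These 3 shares are what the selection itself fixes. The other 2748 sites had an intermediate pattern. Of these, 517 sites had a peak in 2 NURF301 knockdown lists and in no Su(Hw) knockdown list, and 147 had a peak in 2 Su(Hw) knockdown lists and in no NURF301 knockdown list, so they lay just outside the selection.

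The NURF301 knockdown lists held 5463, 4091 and 4226 CP190 peaks and the Su(Hw) knockdown lists 4227, 3688 and 3854. The mock lists held 10095 to 10553 and the mock2 lists 5984 to 8813. All knockdown lists were thus shorter than all mock lists, and the 2 knockdowns overlapped in length. The mean log2 number of peaks was higher by 0.22 after NURF301 knockdown, with an exact two-sided permutation p of 0.3 (n = 3 each), where 3 against 3 libraries cannot go below 0.1. Without NURF301 knockdown replicate 1 it was 0.09. With read depth not given in the sources used here, peak numbers stand in for it. The median −log10 q of a list, the peak caller's significance as the authors deposited it, was 34.5, 22.7 and 21.7 after NURF301 knockdown, and 42.5, 33.7 and 44.2 after Su(Hw) knockdown. Absence from a list therefore means that no peak was called at that depth, not that CP190 was absent. Fewer bound cells and less CP190 per cell cannot be told apart in such bulk libraries.

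The targeted proteins checked the labels. NURF301 ChIP gave 253, 1 and 24 peaks in NURF301 knockdown cells, against 5449 to 8216 in mock cells. Su(Hw) ChIP gave 74, 77 and 96 peaks in Su(Hw) knockdown cells, against 5165 to 5358 in mock2 cells. The protein that was not targeted kept part of its peaks. Su(Hw) ChIP gave 3539, 2625 and 3315 peaks in NURF301 knockdown cells, against 3990 to 4607 in mock cells. NURF301 ChIP gave 1819, 1965 and 2027 peaks in Su(Hw) knockdown cells, against 4608 to 8226 in mock2 cells.

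Lists of the same knockdown shared more peaks than lists of different knockdowns when counted on the shorter list. Between NURF301 knockdown libraries, 86.2% to 97.5% of the shorter list's peaks had a partner in the longer list. Between Su(Hw) knockdown libraries the share was 92.4% to 96.8%. In the 9 pairs of a NURF301 knockdown and a Su(Hw) knockdown library it was 71.2% to 86.1% of the shorter list and 57.8% to 73.1% of the longer list. On the shorter list the pairs of the same knockdown lay above all 9 pairs between knockdowns. On the longer list the shares were 72.4% to 82.7% within NURF301 knockdown and 83.5% to 87.9% within Su(Hw) knockdown, so the lowest pair within NURF301 knockdown lay below the highest pair between knockdowns.

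The 710 CP190 sites kept after NURF301 knockdown alone were almost entirely Su(Hw) sites of mock cells. A partner was counted as present in mock cells where 4 or more of its 6 mock and mock2 libraries had a peak, or 2 of 3 for Mod(mdg4)67.2, whose libraries were all of the mock series. With fewer it counted as absent, so a site without a partner may still have a peak in some of its libraries. Su(Hw) was present at 690 of the 710 sites (97.2%) and Mod(mdg4)67.2, the gypsy isoform of Mod(mdg4), at 669 (94.2%). NURF301 itself was present in mock cells at 539 (75.9%). Single NURF301 libraries had a peak at 22.4% (mock2 replicate 2) to 88.7% (mock replicate 1) of the 710 sites. In the 345 sites kept after Su(Hw) knockdown alone, Su(Hw) was present at 20 (5.80%), Mod(mdg4)67.2 at 7 (2.03%) and NURF301 at 196 (56.8%). The sites kept in all 6 lists were NURF301 sites: NURF301 was present at 2470 of 2480 (99.6%), Su(Hw) at 157 (6.33%) and Mod(mdg4)67.2 at 145 (5.85%). Over all 6283 merged sites the shares were 29.2% for Su(Hw), 82.4% for NURF301 and 24.7% for Mod(mdg4)67.2.

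**Figure D1:**
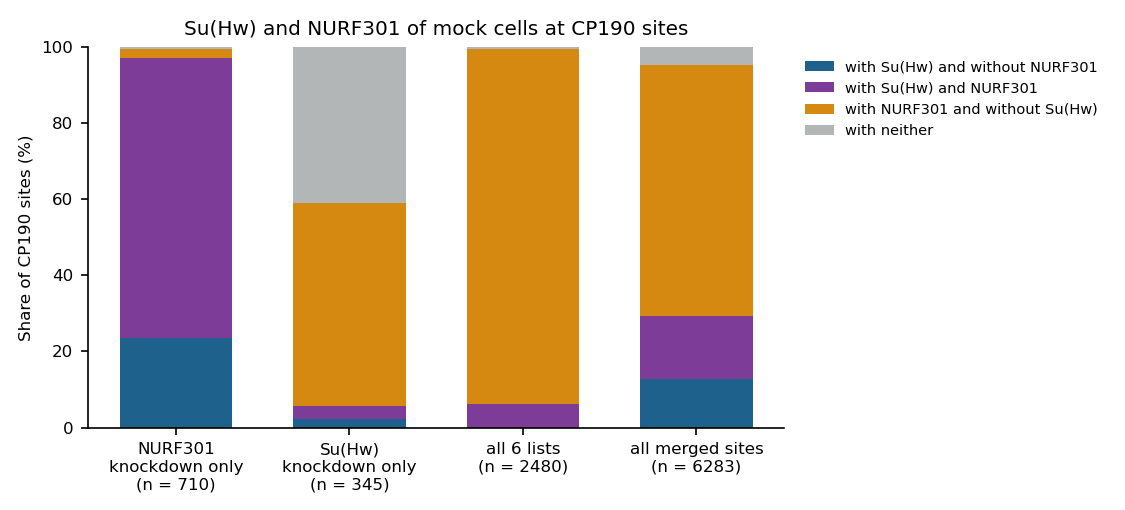
Share of CP190 sites (%, vertical axis) with Su(Hw), NURF301, both or neither in mock cells, for sites kept after NURF301 knockdown alone, after Su(Hw) knockdown alone, in all 6 lists, and for all merged sites. Sites with Su(Hw) fill 97.2% of the first bar, sites with neither protein 40.9% of the second and sites with NURF301 99.6% of the third.

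Combining the partners separated the 3 kinds of site further. Sites with both Su(Hw) and NURF301 made up 522 of the 710 kept after NURF301 knockdown alone (73.5%), and sites with Su(Hw) and without NURF301 another 168 (23.7%). Of the 345 kept after Su(Hw) knockdown alone, 184 (53.3%) had NURF301 without Su(Hw) and 141 (40.9%) had neither. Over all merged sites, 66.0% had NURF301 without Su(Hw), 16.4% had both proteins and 12.8% had Su(Hw) without NURF301. The 53.3% thus lay below the share over all merged sites. Sites with neither protein were 302 of all merged sites (4.81%), and 3 of the 710 (0.423%) and 10 of the 2480 (0.403%). No site of the 2480 had Su(Hw) without NURF301. These counts describe chosen sites, and sites are not replicates of a knockdown, so no test over sites was made.

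The place of the sites relative to genes also differed. A gene boundary was taken as the 500 bp on each side of the first or last annotated base of a protein-coding gene, because the annotation used here holds no strand. Boundaries held 42.0% of the sites kept after NURF301 knockdown alone, 41.4% of those kept after Su(Hw) knockdown alone and 88.4% of those in all 6 lists, beside 69.9% of all merged sites. The interior of genes held 36.2%, 40.6% and 7.86% in the same order, beside 19.8% of all merged sites. Boundary sites lay at 2 or more genes in 40.6% of the cases after NURF301 knockdown alone, 49.0% after Su(Hw) knockdown alone and 75.0% in all 6 lists. Over all merged sites this share was 70.3%. Median site widths were 495, 538 and 666 bp, beside 507 bp over all merged sites. Chromosome 4, a small and largely heterochromatic chromosome, held 24 of the merged sites (0.382%), of which 3 were kept after NURF301 knockdown alone (0.423% of that kind), 6 after Su(Hw) knockdown alone (1.74%) and 9 in all 6 lists (0.363%). The X chromosome held 17.9%, 22.3% and 18.7% of the 3 kinds, beside 18.7% of all merged sites.

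Within the NURF301-knockdown kind, the place followed the partners, as it did over all merged sites. Over all merged sites, boundaries held 46.4% of those with both proteins and 20.2% of those with Su(Hw) and without NURF301. They held 87.8% of those with NURF301 and without Su(Hw). Mod(mdg4)67.2 accompanied 91.8%, 72.2% and 0.531% of all merged sites in the same order. The sites with Su(Hw) and NURF301 were at a gene boundary in 45.0% of cases, and those with Su(Hw) and without NURF301 in 29.2%. Mod(mdg4)67.2 accompanied 98.3% of the 522 and 92.9% of the 168. Within the 2480 shared sites, the 2313 with NURF301 and without Su(Hw) were at boundaries in 90.1% of cases and carried Mod(mdg4)67.2 in 0.778%, while the 157 with Su(Hw) were at boundaries in 67.5% and carried it in 80.9%.

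Nearly all sites of the 3 kinds were also called as CP190 sites in mock cells. A peak was present in all 6 mock and mock2 lists at 691 sites kept after NURF301 knockdown alone (97.3%), at 263 kept after Su(Hw) knockdown alone (76.2%) and at 2446 of the shared sites (98.6%). Over all merged sites it was 5181 (82.5%), above the share of the Su(Hw)-knockdown kind and below those of the other 2. No mock list had a peak at 3 of the 345 sites kept after Su(Hw) knockdown alone, and there were no such sites in the other 2 kinds. The strength of a site was expressed as its mean percentile of −log10 q within the mock lists. The median percentile was 76.9 for sites kept after NURF301 knockdown alone, 54.9 for sites kept after Su(Hw) knockdown alone and 73.9 for shared sites, with 63.9 over all merged sites. The middle 50% of the Su(Hw)-knockdown kind spanned percentiles 35.4 to 77.7, wider than the 70.4 to 82.2 of the NURF301-knockdown kind. Within the lists that held them, the sites kept after NURF301 knockdown alone had median percentiles of 67.8, 36.3 and 54.8, and those kept after Su(Hw) knockdown alone 54.7, 57.7 and 48.0. Both kinds thus lay around the middle of their own lists, and NURF301 knockdown replicate 2 ranked its sites lowest.

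CP190 binding at the kinds was also read in each mock series. Sites kept after Su(Hw) knockdown alone had a CP190 peak at 98.4% ± 0.443 in the mock libraries and 90.0% ± 11.97 in the mock2 libraries (SD, n = 3 each), with 76.2% in mock2 replicate 1. Sites kept after NURF301 knockdown alone had one at 100% in all 3 mock libraries and 98.7% ± 1.29 in the mock2 libraries. Presence in mock cells was thus high in both series for both kinds.

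Libraries of other antibodies and of the CP190 knockdown took no part in the choice of sites. Su(Hw) ChIP in NURF301 knockdown cells had a peak at 94.9% ± 3.38 of the sites kept after NURF301 knockdown alone, 0.580% of those kept after Su(Hw) knockdown alone and 3.92% ± 1.06 of the shared sites (SD, n = 3). Su(Hw) thus remained called at nearly all the sites kept after NURF301 knockdown alone, and at few of the shared sites, most of which had no Su(Hw) in mock cells. NURF301 ChIP in Su(Hw) knockdown cells had a peak at 0.798% ± 0.453, 7.73% ± 1.75 and 41.5% ± 3.44 in the same order (SD, n = 3). It was thus called at the fewest sites in the kind that had no CP190 peak in those cells. In mock2 cells NURF301 ChIP had a peak at 63.0% ± 35.5, 49.2% ± 20.3 and 96.1% ± 6.52 in the same order (SD, n = 3). The shared sites were thus already the most often called without knockdown.

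The lists from CP190 knockdown cells showed a different order. They held 1203 and 1280 CP190 peaks. A peak was present there at 40.8% and 45.2% of the sites kept after NURF301 knockdown alone, at 1.74% and 1.45% of those kept after Su(Hw) knockdown alone, and at 30.5% and 31.3% of the shared sites (n = 2). Mock strength differs between the kinds, so the comparison was repeated at sites above percentile 68.5, the upper tertile of all mock CP190 sites. CP190 peaks in CP190 knockdown cells were then present at 46.9% ± 4.29 of 561 sites, 3.81% ± 0.599 of 118 sites and 48.8% ± 0.989 of 1502 sites (SD, n = 2). Among strong sites, those kept after Su(Hw) knockdown alone were still rarely called in CP190 knockdown cells.

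**Figure D2:**
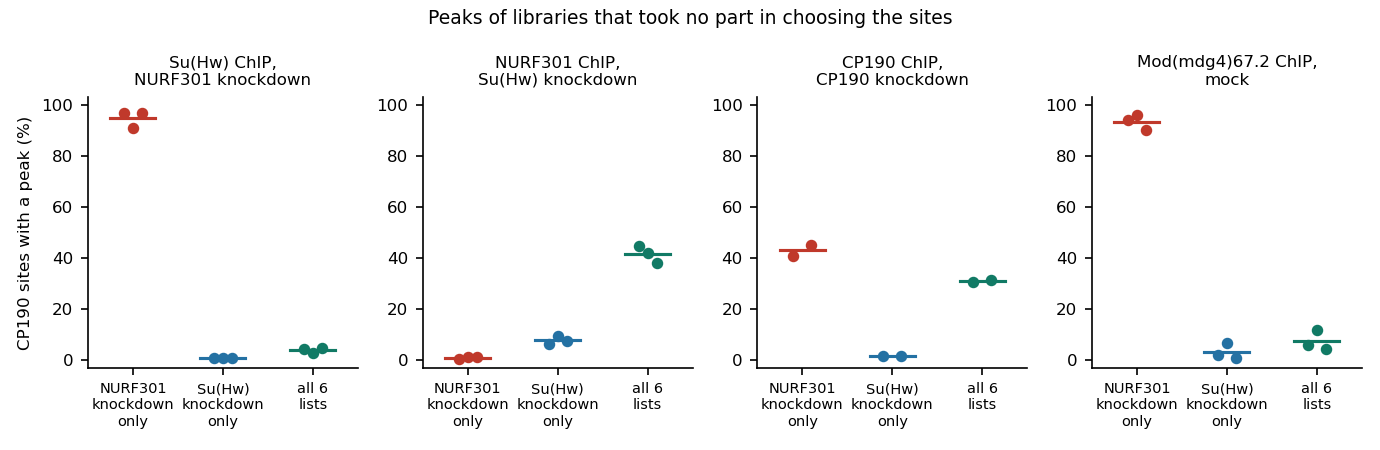
Share of CP190 sites (%, vertical axis) with a peak in libraries that did not choose the sites, by kind of site. Points are libraries and lines are means: Su(Hw) in NURF301 knockdown cells, NURF301 in Su(Hw) knockdown cells, CP190 in CP190 knockdown cells and Mod(mdg4)67.2 in mock cells. Sites kept after Su(Hw) knockdown alone stay below 10% in all of these panels.

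The strongest sites of each kind give the pattern gene by gene. The 15 named sites per kind, 10 at gene boundaries and 5 elsewhere, had the highest mean within-list percentile of −log10 q, and each had a peak in all 6 mock and mock2 lists. All 15 of the NURF301-knockdown kind had both Su(Hw) and NURF301 in mock cells, and 14 had Mod(mdg4)67.2. Of the 15 of the Su(Hw)-knockdown kind, 1 had Su(Hw) and 14 had NURF301. All 15 of the shared kind had NURF301 and none had Su(Hw). The −log10 q of a peak is quoted below for each library. It grows with depth, so it shows where a peak was called and is not compared between libraries.

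Among sites kept after NURF301 knockdown alone, the first at a boundary lay at CG8661 and Fim, the gene of the actin-bundling protein fimbrin, at chrX:17284635-17285219. Its −log10 q was 79.4, 49.3 and 48.6 in the NURF301 knockdown lists, no peak was called in a Su(Hw) knockdown list, and it was 248, 305 and 246 in mock. The site at CG6026 and cdi, which encodes a protein kinase, reached 81.6, 38.7 and 44.2 after NURF301 knockdown, none after Su(Hw) knockdown, and 268, 261 and 251 in mock. The site at CG3009 and Cbp80, the large subunit of the nuclear cap-binding complex, reached 77.6, 35.9 and 40.3 after NURF301 knockdown, none after Su(Hw) knockdown, and 273, 272 and 248 in mock. In mock2 the CP190 −log10 q was 210, 342 and 373 at Fim, 220, 273 and 422 at cdi, and 245, 403 and 400 at Cbp80. Su(Hw) had a peak at these 3 sites in all 3 NURF301 knockdown libraries. The site at fabp, a fatty-acid binding protein gene, and sea, a mitochondrial citrate carrier gene, was the exception among the 15: it lacked Mod(mdg4)67.2 and had no Su(Hw) peak in any NURF301 knockdown library. Its CP190 −log10 q was 56.8, 44.5 and 45.7 after NURF301 knockdown, none after Su(Hw) knockdown, and 260, 281 and 280 in mock. In mock2 it was 60.0, 197 and 204.

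Away from boundaries, the leading site of this kind was inside cu, the gene of the fly Nocturnin homologue curled, at chr3R:11201563-11202135. Its −log10 q was 94.5, 48.4 and 50.6 after NURF301 knockdown, none was called after Su(Hw) knockdown, and it was 293, 317 and 314 in mock. The next lay 1600 bp from spz, which encodes the Toll ligand Spätzle, at chr3R:27071671-27072251, with 119, 33.2 and 42.1 after NURF301 knockdown, none after Su(Hw) knockdown, and 171, 213 and 154 in mock. Sites inside toc and CG6330 and 1273 bp from sm, an hnRNP L homologue gene, completed the 5. In each of these 15 sites the NURF301 knockdown libraries all had a peak and the Su(Hw) knockdown libraries had none, as the selection requires.

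The same kind held a site at the gene su(Hw) itself. At chr3R:14307825-14309134, a boundary site with Su(Hw), NURF301 and Mod(mdg4)67.2 in mock cells, the CP190 −log10 q was 59.8, 11.1 and 18.0 after NURF301 knockdown, none was called after Su(Hw) knockdown, and it was 163, 163 and 146 in mock. At y, the pigmentation gene whose gypsy insertions made it a classic insulator locus, the site chrX:361357-361915 also carried all of these proteins. Its −log10 q was 95.8, 24.7 and 20.9 after NURF301 knockdown, none after Su(Hw) knockdown, and 268, 235 and 213 in mock. The mock2 values were 232, 240 and 270 at su(Hw) and 190, 237 and 306 at y.

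Among sites kept after Su(Hw) knockdown alone, the first at a boundary lay at scaf, the gene of the serine protease homologue Scarface, at chr2R:5676688-5678192. No peak was called in a NURF301 knockdown list, while the −log10 q was 148, 104 and 222 after Su(Hw) knockdown, 359, 376 and 253 in mock, and 186, 281 and 554 in mock2. The site at CG12395 and dpr18, of the immunoglobulin family of Dpr cell-surface proteins, had none after NURF301 knockdown, 169, 88.8 and 208 after Su(Hw) knockdown, 326, 316 and 205 in mock, and 297, 385 and 477 in mock2. At Ilp5, an insulin-like peptide gene, there was none after NURF301 knockdown, with 120, 85.9 and 185 after Su(Hw) knockdown, 321, 319 and 274 in mock, and 189, 421 and 390 in mock2. The site 52 bp from Mur11Da, a mucin-related gene, was the member of these 15 with Su(Hw) and Mod(mdg4)67.2, and had 148, 80.3 and 240 after Su(Hw) knockdown, 331, 335 and 186 in mock, and 304, 424 and 604 in mock2.

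Away from boundaries, this kind was led by a site inside Rbfox1, which encodes an RNA-binding splicing regulator, at chr3L:10507826-10508487. No peak was called after NURF301 knockdown, while the −log10 q was 178, 88.2 and 230 after Su(Hw) knockdown, 463, 508 and 393 in mock, and 244, 443 and 456 in mock2. A site 4700 bp from Nlg3, a neuroligin gene, had 178, 99.1 and 165 after Su(Hw) knockdown, 389, 373 and 268 in mock, and 326, 525 and 646 in mock2, again with none after NURF301 knockdown. A site inside Pvf1, the gene of a PDGF- and VEGF-related ligand, had 170, 79.4 and 220 after Su(Hw) knockdown, 288, 292 and 278 in mock, and 59.7, 200 and 238 in mock2. A site inside mtt, a metabotropic glutamate receptor gene, had 156, 97.1 and 174 after Su(Hw) knockdown, 440, 389 and 328 in mock, and 240, 464 and 519 in mock2. Neither had a peak after NURF301 knockdown. These sites were therefore among the stronger CP190 peaks of mock cells, at mock percentiles of 97.1 (Rbfox1), 97.5 (Nlg3), 79.1 (Pvf1) and 97.3 (mtt).

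Sites kept in all 6 lists reached the highest percentiles. The site at RpS27, a ribosomal protein gene, and bam, a germline differentiation gene, at chr3R:25245038-25246069 had a −log10 q of 122, 42.7 and 44.3 after NURF301 knockdown, 160, 96.0 and 268 after Su(Hw) knockdown, and 250, 295 and 194 in mock. The site at CG6693 and RpL3, another ribosomal protein gene, had 132, 53.1 and 40.1 after NURF301 knockdown, 180, 85.8 and 216 after Su(Hw) knockdown, and 240, 304 and 165 in mock. The site at Golgin97, a Golgi protein gene, and arr, the gene of the Wingless co-receptor Arrow, had 109, 73.5 and 57.9 after NURF301 knockdown, 147, 97.1 and 179 after Su(Hw) knockdown, and 279, 326 and 261 in mock. All 6 knockdown libraries had a peak at these sites, without Su(Hw) in mock cells. Inside genes, the leading sites lay in Exn, a guanine nucleotide exchange factor gene, Plp, the gene of a centrosomal pericentrin-like protein, and Asator, a tubulin kinase gene on chromosome 4.

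The contrast was also read from the peaks of each library, without choosing sites. At Su(Hw) sites of mock cells lay 32.2%, 24.1% and 31.7% of the CP190 peaks of the NURF301 knockdown libraries and 6.39%, 5.78% and 5.79% of those of the Su(Hw) knockdown libraries. The mock and mock2 means were 37.7% and 42.0%. All NURF301 knockdown libraries lay above all Su(Hw) knockdown libraries, and the difference was 23.3 percentage points, with an exact two-sided permutation p of 0.1, the smallest possible, and an adjusted p of 0.133 over the 4 shares tested (n = 3 each). At Mod(mdg4)67.2 sites lay 27.8%, 22.6% and 29.3% after NURF301 knockdown, and 5.18%, 4.80% and 4.96% after Su(Hw) knockdown, with mock and mock2 means of 19.4% and 27.1%. The difference was 21.6 points (exact permutation p 0.1, adjusted p 0.133, n = 3 each).

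Shares at NURF301 sites were 85.4%, 93.7% and 89.2% after NURF301 knockdown and 93.8%, 92.9% and 94.7% after Su(Hw) knockdown, against 62.9% and 67.6% in mock and mock2. The groups overlapped, and the difference of -4.38 points had an exact permutation p of 0.2 and an adjusted p of 0.2 (n = 3 each). It was -2.37 points without NURF301 knockdown replicate 1, -1.40 when peaks below a −log10 q of 20 were dropped, and -9.33 with partner sites in every mock library, where the exact permutation p was 0.1. Peaks at gene boundaries made up 71.2%, 77.7% and 72.6% after NURF301 knockdown, and 83.5%, 80.9% and 83.2% after Su(Hw) knockdown, against 56.1% and 59.6% in mock and mock2. Every Su(Hw) knockdown library lay above every NURF301 knockdown library, by 8.70 points on average (a difference of -8.70, exact permutation p 0.1, adjusted p 0.133, n = 3 each). No share could pass an adjusted p of 0.05 in this design. The labels do not say that the libraries came from separate cultures, so these p-values measure the spread between libraries, which may be technical.

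**Figure D3:**
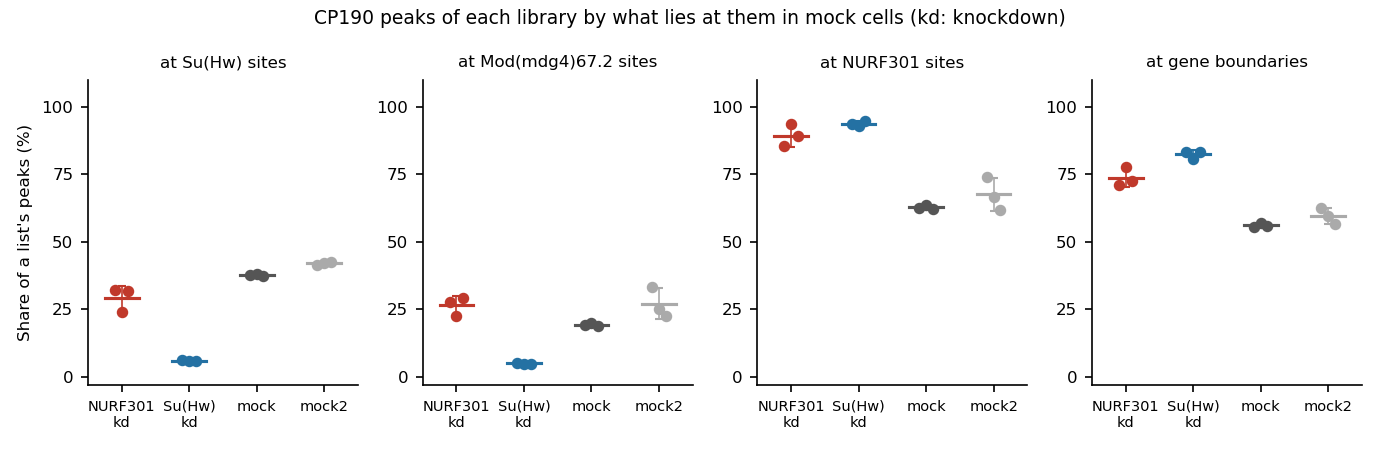
Share of each list's CP190 peaks (%, vertical axis) at mock sites of Su(Hw), Mod(mdg4)67.2 and NURF301 and at gene boundaries. Points are libraries, horizontal lines the means and bars the SD (n = 3). At Su(Hw) sites the NURF301 knockdown libraries lie between 24.1% and 32.2% and the Su(Hw) knockdown libraries between 5.78% and 6.39%.

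To follow CP190 from mock cells, recovery was measured at 8308 CP190 sites that 4 or more of the 6 mock and mock2 libraries shared, divided by partner. Recovery in mock and mock2 is raised by this choice, so these libraries are not an independent baseline for the knockdowns. Of the 1089 sites with both Su(Hw) and NURF301, 90.9%, 69.6% and 83.4% had a CP190 peak in the NURF301 knockdown libraries, against 25.5%, 21.3% and 22.7% in the Su(Hw) knockdown libraries. The groups were separate, with a difference of 58.1 points (exact permutation p 0.1, adjusted p 0.133 over the 4 classes, n = 3 each). All mock libraries had a peak at 100% of these sites and mock2 libraries at 97.4% to 99.9%. Most of these sites thus kept a CP190 peak after NURF301 knockdown and most had none after Su(Hw) knockdown, although both proteins are present there in mock cells.

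The 426 sites with neither protein showed the opposite order. They were recovered at 7.51%, 6.34% and 5.87% after NURF301 knockdown, and at 49.5%, 48.6% and 38.5% after Su(Hw) knockdown. The difference was -39.0 points (exact permutation p 0.1, adjusted p 0.133, n = 3 each). Recovery was 97.7% to 98.8% in mock but 27.5%, 73.7% and 96.0% in mock2, so mock2 replicate 1 lay below all Su(Hw) knockdown libraries. Few of these sites thus had a CP190 peak after the knockdown of NURF301, a protein with no mock site called there.

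The 2469 sites with Su(Hw) and without NURF301 were recovered at 28.96%, 8.46% and 16.3% after NURF301 knockdown, and at 0.648%, 0.527% and 0.365% after Su(Hw) knockdown. Mock libraries had 99.2% to 99.9% and mock2 libraries 54.5%, 88.9% and 99.6%. The difference of 17.4 points separated the groups (exact permutation p 0.1, adjusted p 0.133, n = 3 each). Most of these sites nevertheless had no peak after either knockdown. No peak in any of the 6 lists was found at 1705 of them (69.1%), beside 2336 of all 8308 sites (28.1%). The 1705 were weak in mock cells, with a median mock percentile of 27.1 against 37.7 for their class. The 4324 sites with NURF301 and without Su(Hw) were recovered at 79.3%, 67.3% and 63.3% after NURF301 knockdown and at 82.8%, 71.5% and 76.7% after Su(Hw) knockdown. These groups overlapped, and the difference of -7.01 points had an exact permutation p of 0.3 (adjusted p 0.3, n = 3 each). With lists cut to equal length the difference was -15.3 points and the groups were separate (exact permutation p 0.1), and leaving out a library gave -3.69 to -11.7 points, the extremes being without NURF301 knockdown replicate 3 and without NURF301 knockdown replicate 1. Mock libraries had a peak at 100% of these sites and mock2 libraries at 75.3%, 95.3% and 98.5%. Only 379 of them (8.77%) had no peak in any of the 6 lists, beside 69 sites with both proteins (6.34%) and 183 with neither (43.0%).

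**Figure D4:**
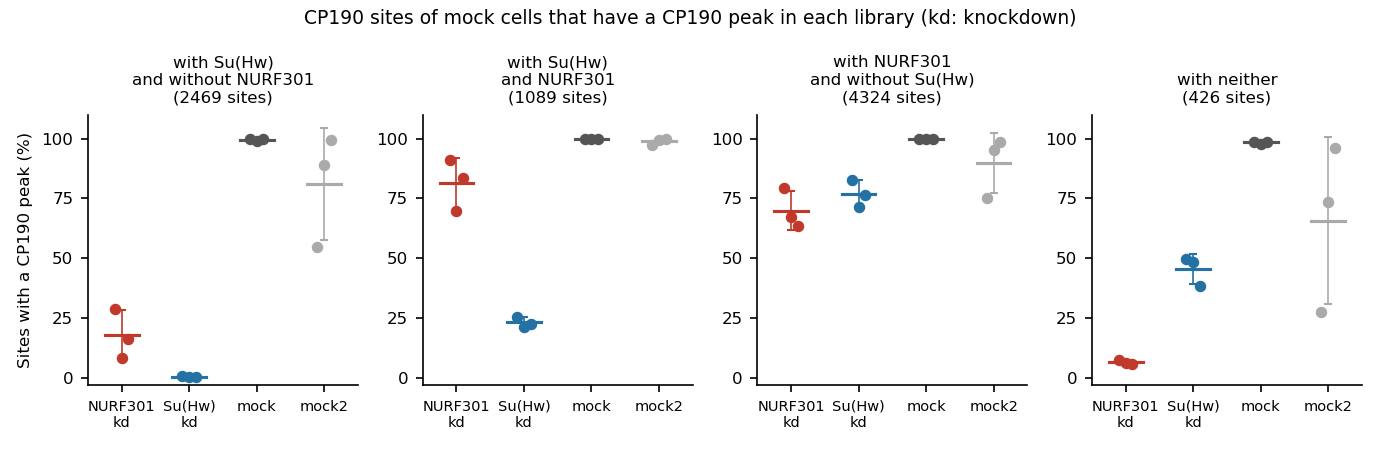
Share of mock CP190 sites (%, vertical axis) with a CP190 peak in each library, in 4 classes of site by partner. Points are libraries, horizontal lines the means and bars the SD (n = 3). With both proteins the NURF301 knockdown libraries lie between 69.6% and 90.9% and the Su(Hw) knockdown libraries between 21.3% and 25.5%, and with neither protein the order is turned round.

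When each knockdown was first set against its own titled mock series, the differences kept their direction at 3 of the 4 classes and none passed the threshold of 0.05. At sites with both proteins, recovery was lower than in mock by 18.7 points after NURF301 knockdown and lower than in mock2 by 75.7 points after Su(Hw) knockdown. The difference of these effects was 57.0 points, with an exact permutation p of 0.1 over 400 relabellings within each series (adjusted p 0.2, n = 3 in each of 4 groups). At sites with neither it was -71.7 points (exact permutation p 0.085, adjusted p 0.2, n = 3 in each of 4 groups), and at sites with NURF301 and without Su(Hw) -17.3 points (exact permutation p 0.33, adjusted p 0.44, n = 3 in each of 4 groups). Mean recovery in mock and mock2 was 98.4% and 65.7% at sites with neither, and 100% and 89.7% at sites with NURF301 and without Su(Hw). This gap between the mock series is part of both values. At sites with neither, the value was -52.5 points without mock2 replicate 1 and -86.8 without mock2 replicate 3. At sites with Su(Hw) and without NURF301 the difference of effects was -1.22 points (exact permutation p 0.955, adjusted p 0.955, n = 3 in each of 4 groups), the opposite sign of the direct difference, with mock2 recovery itself at 54.5% in replicate 1. This value turned positive, to 12.04 points, without mock2 replicate 1. The relabellings exchanged knockdown and mock libraries within a series, so they took neither knockdown to have any effect. Their p-values therefore do not test whether the effects of the knockdowns were equal, and no conclusion on that is drawn from them.

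Mod(mdg4)67.2 marked the Su(Hw) sites that differed most, given here as a description. Of sites with Su(Hw) and NURF301, the 970 with Mod(mdg4)67.2 were recovered at 84.8% ± 11.1 after NURF301 knockdown and 19.7% ± 1.90 after Su(Hw) knockdown (SD, n = 3 each). The 119 without it were recovered at 52.4% ± 8.42 after NURF301 knockdown and 51.8% ± 4.23 after Su(Hw) knockdown. Of sites with Su(Hw) and without NURF301, the 980 with Mod(mdg4)67.2 had 35.9% ± 17.9 after NURF301 knockdown and 0.510% after Su(Hw) knockdown. The 1489 without it had 6.07% ± 5.59 after NURF301 knockdown and 0.515% after Su(Hw) knockdown. Mock recovery was 98.9% to 100% in the 4 groups of sites. In mock2 it was 27.1%, 81.7% and 99.4% at the 1489 sites and 78.2%, 94.1% and 99.2% at the 119, against 96.2% to 100% at the 980 and 99.8% to 100% at the 970, so sites without Mod(mdg4)67.2 were also less often called in mock2 replicate 1. The recovery after NURF301 knockdown was thus higher where Mod(mdg4)67.2 was present in mock cells, with and without NURF301. Sites with Mod(mdg4)67.2 were also the stronger CP190 sites in mock cells, with median mock percentiles of 79.3 against 59.7 for sites with both proteins, and 61.8 against 24.1 for sites with Su(Hw) and without NURF301. The part of strength in this difference was not tested.

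Recovery also followed the strength of the site in mock cells, given in tertiles of mock percentile. At the strongest tertile, the 890 sites with Su(Hw) and NURF301 were recovered at 85.8% ± 10.2 after NURF301 knockdown and 24.9% ± 2.0 after Su(Hw) knockdown (SD, n = 3 each). The 350 strongest sites with Su(Hw) and without NURF301 had 57.3% ± 23.2 after NURF301 knockdown and 1.24% ± 0.165 after Su(Hw) knockdown. The 1517 strongest sites with NURF301 and without Su(Hw) had 91.0% ± 2.42 after NURF301 knockdown and 99.96% ± 0.0381 after Su(Hw) knockdown. All mock and mock2 libraries had a peak at 100% of the strongest sites. At the middle tertile, the 92 sites with neither had 9.42% ± 1.66 after NURF301 knockdown and 83.3% ± 5.36 after Su(Hw) knockdown, beside 100% in mock and 78.3%, 95.7% and 100% in mock2. At the weakest tertile, the 29 sites with both proteins had 6.90% ± 6.90 after NURF301 knockdown and 1.15% ± 1.99 after Su(Hw) knockdown, beside 100% in mock and 20.7%, 75.9% and 96.6% in mock2. The order of the 2 knockdown means, at sites with Su(Hw) and at sites with neither, was the same in every tertile.

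**Figure D5:**
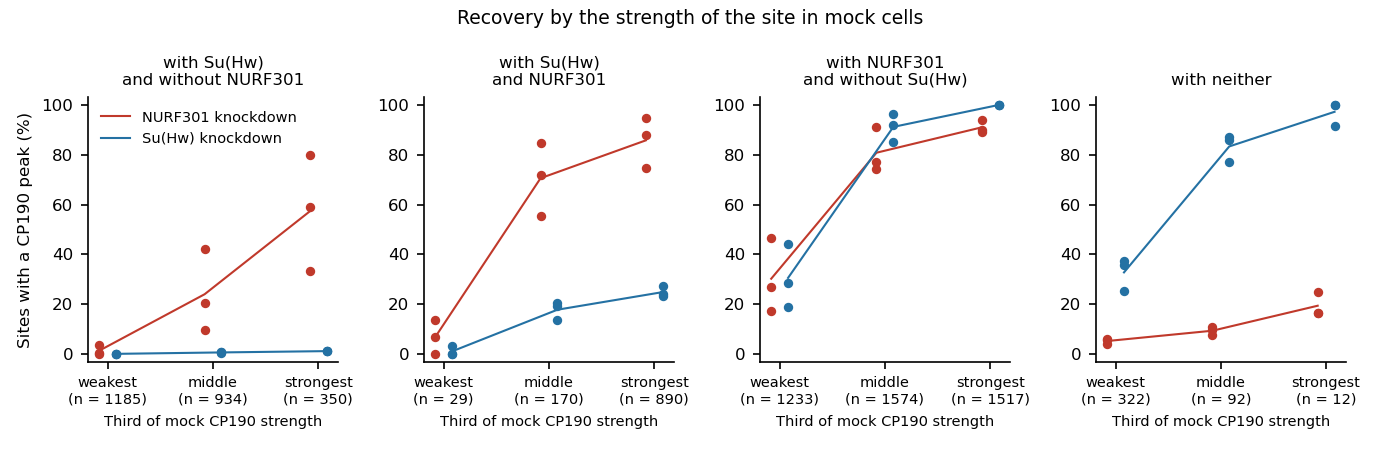
Share of mock CP190 sites with a CP190 peak (%, vertical axis) after NURF301 or Su(Hw) knockdown, by tertile of strength in mock cells and by partner. Points are libraries and lines join the means. Sites with Su(Hw) lie higher after NURF301 knockdown at each strength, and sites with neither protein lie higher after Su(Hw) knockdown.

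Su(Hw) itself was followed at the Su(Hw)-bound CP190 sites of mock cells. Where CP190 kept a peak in all 3 NURF301 knockdown lists (901 sites), Su(Hw) ChIP in NURF301 knockdown cells had a peak at 94.5%, 84.1% and 95.1% of sites. Where CP190 had no peak in any NURF301 knockdown list (1802 sites), Su(Hw) still had a peak at 71.0%, 46.5% and 65.9%, against 97.0%, 99.6% and 87.3% in mock cells. Many sites thus had a Su(Hw) peak without a CP190 peak after NURF301 knockdown. In Su(Hw) knockdown cells, NURF301 ChIP had a peak at 40.7%, 40.6% and 36.8% of the 3118 NURF301-bound sites that kept CP190 in all 3 lists. At the 1403 NURF301-bound sites without a CP190 peak the shares were 6.41%, 10.8% and 13.4%. NURF301 ChIP in mock2 cells had a peak at 100%, 84.0% and 100% of the 3118 sites and at 99.9%, 41.5% and 99.6% of the 1403, so mock2 replicate 2 already called it less often at the sites without CP190.

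The 168 sites with Su(Hw) and without NURF301 that were kept after NURF301 knockdown alone had a median mock percentile of 71.9. Examples picked after their values were seen were boundary sites at CG6126 and sra, a calcineurin regulator gene, at Kr-h2, and at nvy. At sra the CP190 −log10 q was 67.8, 38.1 and 34.7 after NURF301 knockdown, no peak was called after Su(Hw) knockdown, and it was 272, 274 and 262 in mock. In mock2 it was 91.4, 273 and 252. The 20 sites of this kind without Su(Hw) were weaker, at a median mock percentile of 28.8, and 14 of them (70.0%) were at gene boundaries. Inside REPTOR, a transcription factor gene of TORC1 signalling, such a site had 36.6, 23.8 and 16.3 after NURF301 knockdown, none after Su(Hw) knockdown, and 122, 116 and 160 in mock. It had no peak in mock2 replicate 1, and 36.2 and 32.4 in the other mock2 libraries.

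A small set of Su(Hw) sites kept CP190 under both knockdowns. Of the 157 such sites in all 6 lists, 20.4% ± 0.637 had a residual Su(Hw) peak in Su(Hw) knockdown cells, against 2.90% ± 1.15 of the 690 Su(Hw) sites kept after NURF301 knockdown alone (SD, n = 3). CP190 knockdown lists had a peak at 59.9% and 63.1% of the 157, and their median mock percentile was 82.5. The leading examples, picked after their values were seen, were boundary sites at LIMK1 and Pits, at RpS9 and its neighbours CG33702 and CG33703, and at foxo, the insulin-responsive transcription factor gene, and Npc2b. At foxo and Npc2b the −log10 q was 118, 40.7 and 32.2 after NURF301 knockdown, 161, 99.1 and 198 after Su(Hw) knockdown, and 234, 261 and 158 in mock.

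The 141 sites with neither protein that kept CP190 after Su(Hw) knockdown alone had a median mock percentile of 37.8 and were at gene boundaries in 35.5% of cases. Examples picked in the same way were sites inside Tlk, a chromatin-related kinase gene, fz, the gene of the Wnt and planar polarity receptor Frizzled, and ush, a GATA cofactor gene. At Tlk no peak was called after NURF301 knockdown, and the −log10 q was 134, 106 and 161 after Su(Hw) knockdown and 197, 177 and 248 in mock. At fz none was called after NURF301 knockdown, with 106, 71.4 and 133 after Su(Hw) knockdown and 177, 139 and 159 in mock. The boundary site at Ada and pum, the gene of the translational repressor Pumilio, was weak in mock cells, at percentile 24.3. Its −log10 q was 127, 80.8 and 136 after Su(Hw) knockdown, with none after NURF301 knockdown, 70.9, 70.1 and 122 in mock, no peak in mock2 replicate 1, and 22.0 and 90.9 in the other mock2 libraries.

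The size of the kinds depended on the threshold and on the NURF301 knockdown libraries. Without NURF301 knockdown replicate 2, which had the shortest list of its group, 1096 sites were kept after NURF301 knockdown alone. With peaks of a −log10 q of at least 20, there were 275 such sites, 363 kept after Su(Hw) knockdown alone and 1346 in all 6 lists. Over these and the other settings that change the kinds, 89.2% to 98.8% of sites kept after NURF301 knockdown alone had Su(Hw), 4.96% to 7.20% of those kept after Su(Hw) knockdown alone did, and 99.1% to 99.9% of the shared sites had NURF301. The share with NURF301 moved more, from 64.5% to 86.5% of sites kept after NURF301 knockdown alone and from 54.2% to 69.4% of those kept after Su(Hw) knockdown alone.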

How the data were processed

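CP190, Su(Hw), NURF301 and Mod(mdg4)67.2 peak lists of Kc167 cells were used as deposited, 1 list per library. Per the submitters' processing notes, peaks come from MACS2 2.2.7.1, and reads had passed through Bowtie2 2.4.2, Picard 2.25.2 and SAMtools 1.12. Their settings, the control library and the genome build are not given in the sources used here. Each deposited list gives a score, a ratio (fold enrichment at the summit) and the −log10 p and −log10 q, which are the authors' values. The −log10 q was used to rank peaks within a list, as a percentile, and to set a stricter threshold. The score, the ratio and the −log10 p were not used for any result.

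Coordinates are those of the deposited peaks, counted from 1. Sequence names are those of Release 6 of the genome, and RefSeq genes of that release gave names and neighbours. No sequence is shown, because no genome was used here. Peaks outside the 6 main chromosomes were left out.

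The scripts ran under Python 3.11.15, with pandas 2.3.3 and numpy 2.4.6. Exact two-sided permutation tests over libraries were enumerated with numpy, with Benjamini-Hochberg adjustment within each family of 4. Figures were drawn with matplotlib 3.10.9. Named sites were the 10 boundary and 5 other sites of each kind with the highest mean within-list percentile. Sites called examples and the sites at list genes were chosen after their values were seen. The members, the gene lists and the tests were chosen with earlier results of these data known. The merging was tested on simulated lists. Alternatives were a stricter q, lists of equal length, summits extended by 150 bp, at least 2 of 3 lists, a boundary of 1000 bp, stricter mock sites, all sequence names, a replicate block and leaving out each library. What the sites carry under these settings was computed as an alternative added after the data were seen.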

Additional observations from a re-analysis of the deposited data

How the results depend on the processing

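The direct differences of the shares and of recovery kept their direction under every alternative run. The 2 knockdowns' peak numbers did not: when peaks below a −log10 q of 20 were dropped, the log2 difference was -0.12. In lists of equal length the peak number cannot differ, so no value was computed. Sites kept after NURF301 knockdown alone numbered 275 with a −log10 q of at least 20, 1227 when 2 of 3 lists were enough, and 718 to 1096 when a library was left out, with 1096 without NURF301 knockdown replicate 2. Sites in all 6 lists numbered 1346 with a −log10 q of at least 20. At sites with Su(Hw) and without NURF301, the difference of the knockdown effects turned positive, to 18.1 points with partner sites in every mock library and 30.3 with CP190 sites in every mock library. It was 3.51 without NURF301 knockdown replicate 2 and 12.04 without mock2 replicate 1, in a range of -10.5 to 12.04 over the left-out libraries. The cause was not tested. The other 193 of 202 recomputed values kept their direction and their side of the threshold. Counts of sites among them were judged only by staying within 1.5 times the reported count. For the direct tests the side of the threshold was fixed, since 3 against 3 libraries or fewer cannot go below 0.1. The replicate block leaves each value as it is. Of the 193 values, 27 moved by more than 1.5 times. Among these, the recovery difference was -16.1 points at sites with NURF301 and without Su(Hw) with a −log10 q of at least 20, -76.8 at sites with neither with CP190 sites in every mock library and -21.1 with partner sites in every mock library, and 8.83 to 31.2 over the settings at sites with Su(Hw) and without NURF301.

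Deviations of same-numbered libraries correlated at 0.0302, -0.0013 and 0.0119, beside -0.0752 to 0.0598 for differently numbered libraries. Same-numbered libraries thus did not stand out, which does not settle whether they were paired. With the replicate block, the log2 difference in peak number was 0.22 and the share of peaks at Su(Hw) differed by 23.3 points, each with an exact sign-flip permutation p of 0.25, the smallest that 3 pairs allow.

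Read depth and the control library are unknown here, so a missing peak may reflect depth. The median −log10 q of 2 NURF301 knockdown lists lay below those of all Su(Hw) knockdown lists, and that of replicate 1 lay among them. With lists of equal length 569 sites were kept after NURF301 knockdown alone, 461 after Su(Hw) knockdown alone and 2036 in all 6 lists.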

Other observations

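Genes with a site of each kind at a boundary were counted in 16 gene lists. Over all 13922 protein-coding genes, 418 (3.0%) had a site kept after NURF301 knockdown alone, 211 (1.52%) a site kept after Su(Hw) knockdown alone and 3709 (26.6%) a site in all 6 lists. Ribosomal protein genes had 1 (RpL28), 0 and 66 of 87 in that order. Cell cycle genes had 0, 1 (dup, a replication licensing gene) and 24 of 40. Chromatin remodeler genes had 1 (Acf), 0 and 11 of 23, insulator genes 1 (su(Hw)), 0 and 10 of 21, and Polycomb and Trithorax genes 0, 0 and 12 of 27. Wnt pathway genes had 1 (sgg, the glycogen synthase kinase gene), 2 (Wnt4, a ligand, and gish, a casein kinase gene) and 13 of 26. Toll and Imd genes had 0, 1 (IKKbeta) and 11 of 32, JAK/STAT genes 0, 0 and 7 of 13, and germline genes 0, 0 and 8 of 17.

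In the remaining lists, neuronal genes had 2 (Dscam1 and VAChT), 0 and 6 of 23, muscle genes 0, 0 and 3 of 21, heat shock genes 0, 0 and 3 of 18, ecdysone genes 0, 0 and 6 of 22, and Hox genes 0, 0 and 1 (Ubx) of 8. Hemocyte genes had 1 (Hml), 0 and 8 of 25, and classic insulator loci 1 (y), 1 (gpp) and 3 of 8.

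Some of these genes had sites of more than 1 kind. At Hml, which encodes hemolectin, a site at chr3L:13859881-13860388 with Su(Hw), NURF301 and Mod(mdg4)67.2 was kept after NURF301 knockdown alone, with a −log10 q of 40.8, 15.6 and 22.2 there and 152, 163 and 145 in mock. In mock2 this site had 107, 209 and 252. Another at chr3L:13845136-13845974, with NURF301 and without Su(Hw), was kept in all 6 lists, with 80.0, 39.4 and 48.8 after NURF301 knockdown and 149, 78.7 and 208 after Su(Hw) knockdown. RpL28 likewise had a Su(Hw) site at chr3L:3220871-3221277 kept after NURF301 knockdown alone, and a NURF301 site without Su(Hw) at chr3L:3222784-3223529 kept in all 6 lists. At gpp, the gene of the H3K79 methyltransferase, a site at chr3R:6448141-6449381 was kept after Su(Hw) knockdown alone, with 121, 79.0 and 158 after that knockdown, 305, 324 and 296 in mock and 158, 334 and 527 in mock2, and another at chr3R:6405696-6407002 in all 6 lists. At gish, 2 neighbouring sites with NURF301 and without Su(Hw) were kept after Su(Hw) knockdown alone.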
